A study of Mus musculus with 12 samples.

Results

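The 10 circadian clock genes described here were chosen by their gene symbols, Per1, Per2, Per3, Nr1d1, Nr1d2, Dbp, Arntl, Clock, Npas2 and Ciart, from the 54532 genes of the RNA-Seq count table. They and the other gene lists below were chosen with earlier results of these data known. All 10 passed the filter on low counts, which kept 16904 genes. RNA-Seq was performed on colonic tissue from WT male C57BL/6J mice, 5 weeks old at the start and housed under 12 h light and 12 h dark, with 3 libraries in each of 4 groups. The control group received no dextran sulfate sodium (DSS), a polymer given to mice to damage the lining of the colon and cause acute colitis. The model group received DSS alone. The Rhy group received DSS and rhynchophylline (Rhy), an alkaloid of the herb Uncaria rhynchophylla, and the Rhy dose of the sequenced mice is not given in the sources used here. The DXM group received DSS and the glucocorticoid dexamethasone (DXM) at 4 mg/kg. The time of day at which tissue was collected is not given in the sources used here either, so a difference in clock time between groups and an effect of treatment cannot be told apart. The labels list 3 separate samples per group and do not say more of their origin, so the p-values measure the spread between these samples.

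The molecular clock is a feedback loop of transcription that runs with a period of about a day in nearly every cell, the colonic epithelium included. The proteins of Arntl (also called Bmal1) and Clock, or of Npas2 in place of Clock, pair and bind E-box letters near Per, Nr1d1, Nr1d2, Dbp and Ciart, and the Per and Ciart products in turn repress the pair. The Nr1d1 and Nr1d2 products (Rev-erb alpha and beta) repress Arntl through ROR elements, and the Dbp product activates genes through D-box letters, so that in a normal day the Dbp and Nr1d genes peak at a time when Arntl is low.

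Promoter windows were available in RefSeq (GRCm38.p6) for 9 of the 10 genes, each from 250 bases before to 50 bases after a transcription start. They are shown for the 4 genes whose window held one of the clock letters searched on both strands, in capitals: the E-box CACGTG, the D-box TTATGTAA, and the ROR core TAGGTCA, whose letters replaced a longer ROR pattern that had been searched first and were chosen after the Arntl window had been read. The Ciart window, chr3:95882179-95882478 on the minus strand, held 3 E-boxes, and the first Per1 window, chr11:69098699-69098998 on the plus strand, held 1. The Per3 window, chr4:151044616-151044915 on the minus strand, held 2 D-boxes. The second Arntl window, chr7:113207261-113207560 on the plus strand, held 1 ROR core.
Ciart: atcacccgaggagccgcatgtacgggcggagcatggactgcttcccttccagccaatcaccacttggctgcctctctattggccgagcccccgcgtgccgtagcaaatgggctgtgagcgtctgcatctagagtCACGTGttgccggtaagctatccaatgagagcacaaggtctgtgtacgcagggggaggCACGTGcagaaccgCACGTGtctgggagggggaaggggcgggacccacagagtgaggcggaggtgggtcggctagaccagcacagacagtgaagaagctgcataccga
Per1: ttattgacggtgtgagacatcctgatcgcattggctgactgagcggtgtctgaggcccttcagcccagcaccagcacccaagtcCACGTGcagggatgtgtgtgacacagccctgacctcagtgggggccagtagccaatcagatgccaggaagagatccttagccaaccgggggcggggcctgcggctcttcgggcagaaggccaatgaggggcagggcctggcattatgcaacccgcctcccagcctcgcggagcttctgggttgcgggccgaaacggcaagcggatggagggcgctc
Per3: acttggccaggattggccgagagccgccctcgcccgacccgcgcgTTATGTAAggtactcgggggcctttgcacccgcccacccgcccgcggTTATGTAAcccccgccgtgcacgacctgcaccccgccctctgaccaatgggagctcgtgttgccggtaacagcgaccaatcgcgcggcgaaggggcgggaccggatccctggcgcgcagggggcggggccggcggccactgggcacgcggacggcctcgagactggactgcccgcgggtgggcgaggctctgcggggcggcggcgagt
Arntl: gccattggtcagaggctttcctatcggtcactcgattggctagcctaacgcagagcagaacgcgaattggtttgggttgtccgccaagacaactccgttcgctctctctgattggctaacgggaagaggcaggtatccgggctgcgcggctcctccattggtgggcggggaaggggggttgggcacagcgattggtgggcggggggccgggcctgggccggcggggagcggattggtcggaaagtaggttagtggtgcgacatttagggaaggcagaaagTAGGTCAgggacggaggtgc
Of 32817 windows of all genes, 7.15% held the E-box, 0.935% the D-box and 2.61% the ROR core. None of these letters stood in the windows of Dbp, Nr1d1, Nr1d2, Clock and Npas2, which says only that they are absent from these stretches.

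The count table placed all 10 genes on GRCm38 at the same start and end as the GENCODE M21 annotation. Dbp (ENSMUSG00000059824) lies at chr7:45705088-45710203, Nr1d1 (ENSMUSG00000020889) at chr11:98767932-98775333, Per1 (ENSMUSG00000020893) at chr11:69095217-69109960 and Arntl (ENSMUSG00000055116) at chr7:113207465-113314126. In the annotation, Nr1d1 overlaps Thra, Dbp overlaps Sphk2 and Ciart overlaps C920021L13Rik, each on the other strand, as Gm45355 does Arntl and 1 gene does Npas2. Whether reads were counted by strand is not given in the sources used here, so reads of these pairs cannot be told apart.

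Total counts were 14346478 to 17749716 per library. Control 3, model 3 and Rhy 1 had Hoxb13, a gene of the distal colon and rectum, at 0.165, 1.49 and 0.00 CPM (counts scaled to the library size by the TMM method), against 72.0 to 316 CPM in the other 9. The mitochondrial share of counts ranged from 6.33% to 25.7%. Model 1 and model 2 were much more alike than any other pair, with a dispersion of 0.00201 against 0.0604 to 0.351 in the other 65 pairs, although their variance was still 1.95 times that of counting noise over 14129 genes. Both were kept as separate libraries.

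By length-corrected level, the 10 genes spanned more than an order of magnitude. The mean deposited FPKM over the 12 libraries was 21.2 for Dbp, 18.3 for Nr1d1, 16.1 for Nr1d2, 15.4 for Per2 and 10.3 for Per1. It was 4.22 for Ciart, 4.21 for Per3, 3.87 for Clock, 2.47 for Npas2 and 0.880 for Arntl. Neighbours in this order overlapped in their ranges over the libraries, for example 5.09 to 37.7 FPKM for Dbp and 5.37 to 42.6 FPKM for Nr1d1. Arntl was the lowest of the 10 in every library, at 0.420 to 1.36 FPKM. The widest spread belonged to Nr1d1, whose highest CPM was 7.85 times its lowest, followed by Dbp at 7.33 and Ciart at 7.08, and the narrowest to Nr1d2 at 2.08.

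Compared with controls, 5 of the 10 clock genes, Dbp, Nr1d1, Nr1d2, Ciart and Per1, had lower CPM in all 3 model libraries than in any control library. Over all 16904 genes, 17.0% did not overlap and 6.61% were lower without overlap. The same 5 genes were lower at an unadjusted p under 0.05 by the quasi-likelihood test of edgeR, against 4.51% of all genes. Because the list was chosen with earlier results of these data known, counts beside shares over all genes are a description and not a test. None reached an adjusted p under 0.05, and neither did any of the 16904 genes in this fit (0.00%), although 1626 (9.62%) had an unadjusted p under 0.05 and DESeq2 called 46. The median log2 fold change was -0.62 over the clock genes and 0.01 over all genes. In bulk tissue, fewer cells of a type and less RNA per cell cannot be told apart.

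Dbp, an output transcription factor, stood at 112, 97.6 and 62.9 CPM in control 1 to 3 and at 40.0, 36.8 and 39.4 CPM in model 1 to 3. Its level was 61.6, 44.5 and 15.3 CPM in the Rhy libraries and 110.4, 84.2 and 63.4 CPM in the DXM libraries. The model values lay close together and below every control value, the DXM values lay within the control range, and Rhy 3 was the lowest of the 12. Of the model values, those of model 1 and model 2 came from the most alike pair of libraries. The mean was 91.0 ± 25.4 CPM in the control group and 38.8 ± 1.69 CPM in the model group (SD, n = 3). The edgeR log2 fold change was -1.23 (SE 0.41, unadjusted p 0.0109, adjusted p 0.479), a level 2.35-fold lower. With model 1 and model 2 as 1 library it was -1.22 (unadjusted p 0.0303, adjusted p 0.887).

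Nr1d1, the repressor Rev-erb alpha, stood at 131, 76.6 and 61.2 CPM in the control libraries and at 27.4, 28.0 and 42.1 CPM in the model libraries. It was 50.3, 44.8 and 16.6 CPM in the Rhy libraries and 109, 49.8 and 46.4 CPM in the DXM libraries. As for Dbp, control 1 was the highest library and Rhy 3 the lowest, and DXM 1 lay far above the other DXM libraries. The edgeR log2 fold change from control to model was -1.46 (SE 0.45, unadjusted p 0.00758, adjusted p 0.459). Its relative Nr1d2 (Rev-erb beta) was 83.4, 127 and 111 CPM in the control, 61.1, 70.6 and 71.1 CPM in the model, 99.8, 72.4 and 64.8 CPM in the Rhy and 107, 100.1 and 85.9 CPM in the DXM libraries. All control values exceeded all model values, with a log2 fold change of -0.67 (SE 0.21, unadjusted p 0.00837, adjusted p 0.462) in edgeR. With model 1 and model 2 as 1 library, Nr1d1 was at -1.36 (unadjusted p 0.0292) and Nr1d2 at -0.65 (unadjusted p 0.0268) in edgeR. Both had an adjusted p of 0.887 in that setting.

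Ciart, a repressor of the Arntl and Clock pair, had the largest fold change of the 10 from control to model in the edgeR fit. It was 20.4, 14.1 and 10.9 CPM in the control libraries and 3.47, 3.46 and 8.28 CPM in the model libraries. It was 10.02, 6.40 and 2.89 CPM in the Rhy libraries and 16.2, 14.1 and 5.17 CPM in the DXM libraries. Model 3, at 8.28 CPM, was nearer to the control group than the other model libraries were. The edgeR log2 fold change was -1.58 (SE 0.54, unadjusted p 0.0133, adjusted p 0.479), and -1.37 (unadjusted p 0.0509) with model 1 and model 2 as 1 library.

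The 3 Period genes did not follow one pattern. Per1 was 95.1, 79.6 and 77.5 CPM in the control, 47.3, 47.6 and 42.5 CPM in the model, 61.0, 42.8 and 32.6 CPM in the Rhy and 51.7, 56.4 and 71.4 CPM in the DXM libraries. Every library given DSS lay below every control library. Per1 had the smallest p of the 10 genes between model and control, with a log2 fold change of -0.88 (SE 0.22, unadjusted p 0.00217, adjusted p 0.459) in edgeR and an adjusted p of 0.0423 in DESeq2. With model 1 and model 2 as 1 library, Per1 was at -0.90 (unadjusted p 0.00714, adjusted p 0.887) in edgeR. Its p over the 4 groups was 0.00486 in edgeR, rank 186 of the 16904 genes. Per2 was 75.5, 84.8 and 67.2 CPM in the control, 122, 113 and 45.9 CPM in the model, 45.5, 103 and 134 CPM in the Rhy and 54.3, 83.1 and 170.3 CPM in the DXM libraries. Each DSS group held values both above and below the whole control range, with a model against control log2 fold change of 0.30 (SE 0.48, unadjusted p 0.538). Per3 was 54.8, 62.0 and 41.9 CPM in the control, 52.0, 48.2 and 25.2 CPM in the model, 29.3, 28.7 and 30.7 CPM in the Rhy and 50.1, 34.4 and 33.8 CPM in the DXM libraries. Its lowest spread was in the Rhy group, where all 3 values lay below the control range.

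The activators of the loop overlapped between the control and DSS libraries. Arntl was 6.59, 4.73 and 4.34 CPM in the control, 8.33, 9.71 and 4.35 CPM in the model, 5.31, 10.3 and 7.92 CPM in the Rhy and 10.4, 3.23 and 5.42 CPM in the DXM libraries. Its counts were 62 to 160 reads per library and its model against control log2 fold change was 0.52 (SE 0.45, unadjusted p 0.269). Clock was 42.4, 46.4 and 51.4 CPM in the control, 64.7, 62.9 and 45.9 CPM in the model, 33.9, 53.0 and 67.2 CPM in the Rhy and 44.5, 60.4 and 74.4 CPM in the DXM libraries. Npas2 was 12.2, 17.9 and 11.9 CPM in the control, 10.04, 12.1 and 6.02 CPM in the model, 15.2, 21.0 and 10.2 CPM in the Rhy and 13.2, 4.63 and 8.91 CPM in the DXM libraries. The groups overlapped for all 3 genes in every comparison. Same-numbered control and model libraries deviated together, an uncertain pairing taken from these same data. From control to model within these numbers, Npas2 and Per3 were lower in 3 of 3 pairs. Arntl was higher in 3 of 3, with control 3 and model 3 at nearly the same level, and Per2 and Clock were higher in 2 of 3. Of these pairs, control 3 and model 3 both had Hoxb13 under 5 CPM, and model 1 and model 2 were the most alike pair of libraries. The share of all genes with 3 of 3 pairs in the same direction was not computed. The p-values with a block that follow rest on this pairing. With the replicate number as a block in the 6 libraries, a setting added after seeing the data, the log2 fold changes in edgeR were -0.61 (unadjusted p 0.0576) for Npas2, -0.39 (unadjusted p 0.106) for Per3 and 0.46 (unadjusted p 0.226) for Arntl.

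**Figure D1:**
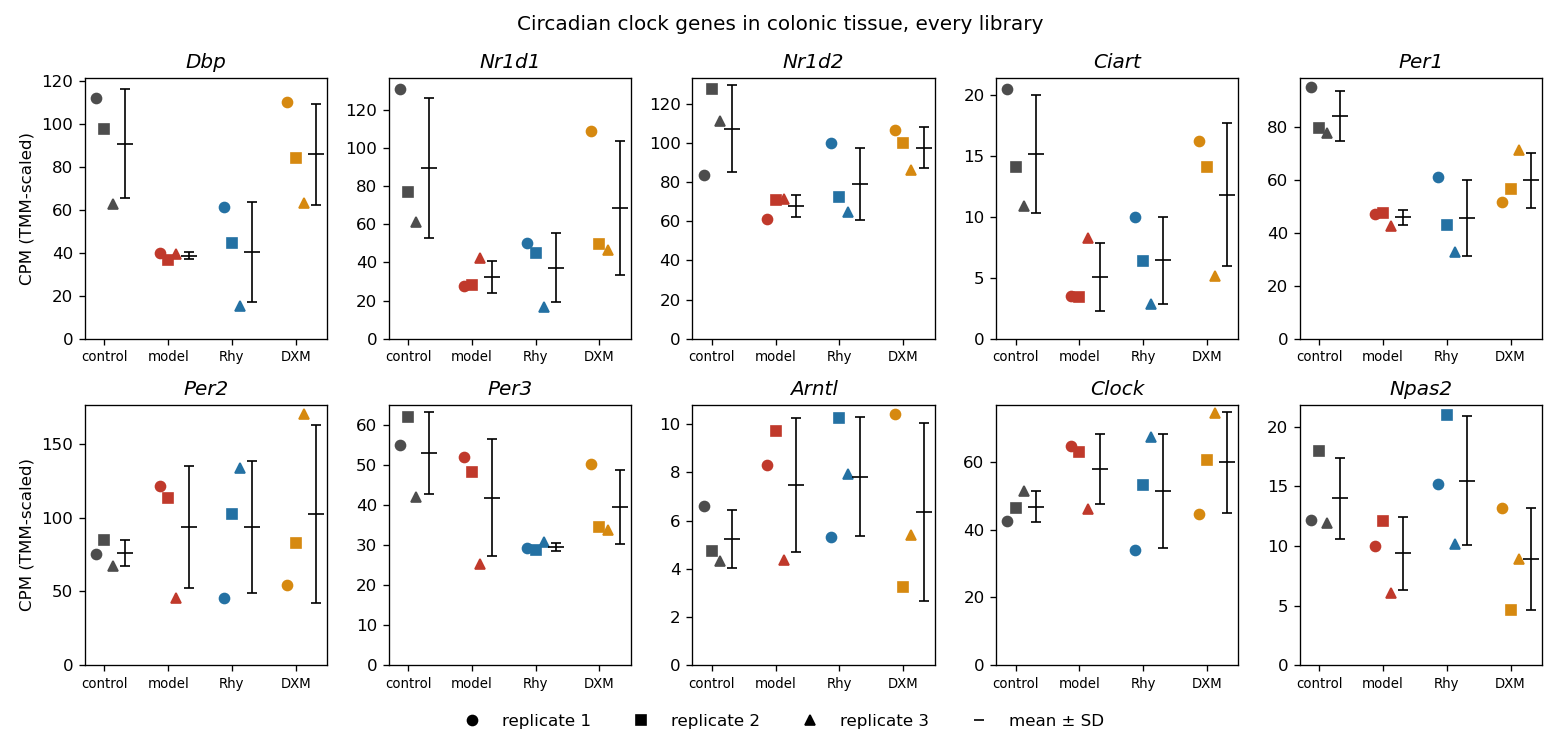
CPM (TMM-scaled) of the 10 genes in each of the 12 libraries, with a panel per gene, the groups on the x axis, a marker shape per replicate number and the mean ± SD of the 3 libraries beside each group. Dbp, Nr1d1, Nr1d2, Ciart and Per1 in the model group sit below every control library, whereas Arntl, Clock, Npas2, Per2 and Per3 overlap between these groups.

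The Rhy group was compared with the control group to ask how far tissue given DSS and Rhy stood from untreated tissue. Again 5 of the 10 genes were lower without overlap, Per1, Per3, Dbp, Nr1d1 and Ciart, against 4.79% of all genes (12.3% in either direction). The same 5 had an unadjusted p under 0.05, against 5.09% of all genes (11.6% in either direction). Without Rhy 3 the count at that level was 3, Per1, Per3 and Dbp, and the share over all genes in that setting is not reported here. The log2 fold changes in edgeR were -0.89 (SE 0.22, unadjusted p 0.00199) for Per1 and -0.84 (SE 0.27, unadjusted p 0.00917) for Per3. They were -1.17 (SE 0.41, unadjusted p 0.0143) for Dbp, -1.26 (SE 0.45, unadjusted p 0.0165) for Nr1d1 and -1.24 (SE 0.54, unadjusted p 0.0400) for Ciart. The smallest adjusted p among the clock genes was 0.364 in edgeR. Nr1d2 overlapped, at -0.44 (SE 0.21, unadjusted p 0.0579). This comparison shares the 3 control libraries with that of the model group, so their like directions are not independent of each other.

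When Rhy was set against the model, 0 of the 10 genes had an unadjusted p under 0.05 in edgeR, against 3.72% of all genes, and 0 were without overlap, against 11.5%. The largest differences were 0.72 (SE 0.40, unadjusted p 0.0983) for Npas2 and -0.50 (SE 0.27, unadjusted p 0.0874) for Per3 on the log2 scale. Dbp, at 0.06 (SE 0.40), and Nr1d1, at 0.20 (SE 0.45), had errors larger than their differences. The count of 0 was 1 in 4 settings. The share over all genes is given only for that with the mitochondrial covariate and is not reported here for the others. Without model 3, and in the libraries with Hoxb13 over 5 CPM, the model group held only model 1 and model 2, the most alike pair of libraries. These settings are thus not separate from each other. Per3 was lower without model 3 (-0.73, unadjusted p 0.00765, adjusted p 0.855), in the libraries with Hoxb13 over 5 CPM (-0.73, unadjusted p 0.0125, adjusted p 0.549) and with the mitochondrial share as a covariate (-0.56, unadjusted p 0.0405, adjusted p 0.793, against 3.34% of all genes lower at an unadjusted p under 0.05), and Npas2 was higher without Rhy 3 (0.95, unadjusted p 0.0461, adjusted p 1.00), all in edgeR.

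When DXM was set against the model, 4 genes were higher without overlap, Dbp, Nr1d1, Nr1d2 and Per1, against 10.4% of all genes (22.6% in either direction). At an unadjusted p under 0.05, 4 genes were higher, against 4.89% (7.69% in either direction). They were Dbp at 1.15 (SE 0.41, unadjusted p 0.0155), Nr1d2 at 0.53 (SE 0.21, unadjusted p 0.0274), Nr1d1 at 1.07 (SE 0.45, unadjusted p 0.0349) and Ciart at 1.22 (SE 0.54, unadjusted p 0.0435) on the log2 scale, and Per1 was at 0.39 (SE 0.22, unadjusted p 0.110). The smallest adjusted p among them was 0.622 in edgeR. The count of 4 was 1 with model 1 and model 2 summed into 1 library, 0 without DXM 1, 2 without DXM 2 and 1 without model 1 or model 2. Shares over all genes in these settings are not reported here. This comparison shares the model libraries with that of model against control, so a low value in those 3 libraries enters both.

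Against the control group, only Per1 was lower in the DXM group without overlap (-0.49, SE 0.22, unadjusted p 0.0487, adjusted p 0.263 in edgeR), against 8.89% of all genes lower without overlap (18.7% in either direction) and 10.2% lower at an unadjusted p under 0.05 (18.9% in either direction). Dbp, at -0.08 (SE 0.40), and Nr1d2, at -0.14 (SE 0.21), were within their errors of no difference. Over the 4 groups together, 5 of the 10 genes had an unadjusted p under 0.05 in edgeR, against 11.5% of all genes: Per1, Dbp (0.0140), Nr1d1 (0.0199), Nr1d2 (0.0343) and Ciart (0.0412).

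**Figure D2:**
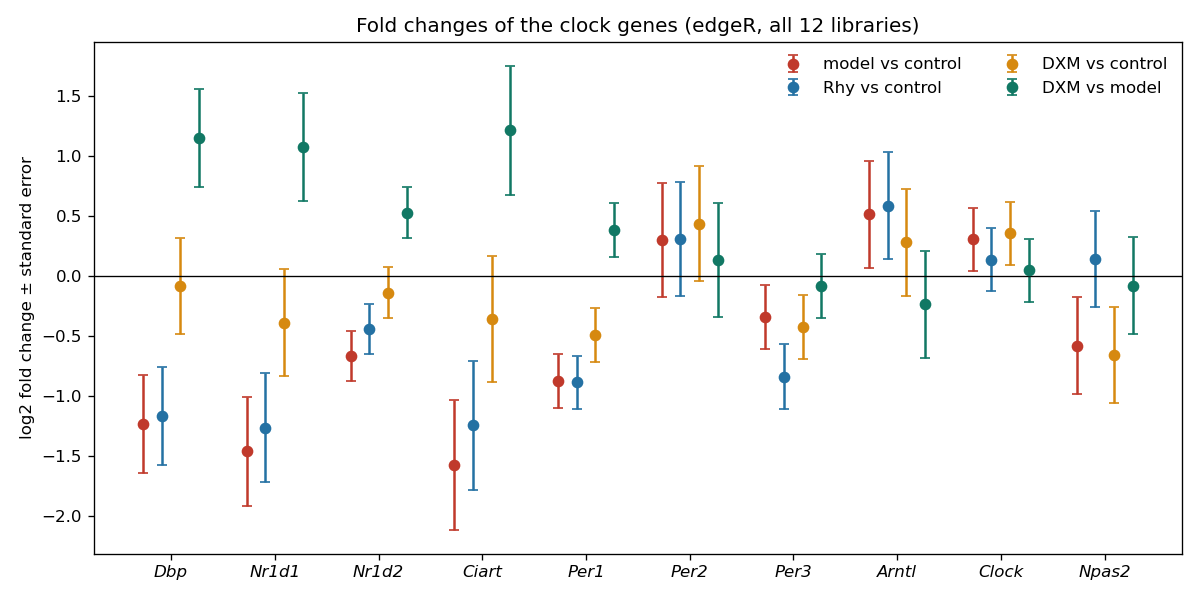
log2 fold change ± standard error of each gene in 4 comparisons from the edgeR fit of 12 libraries, with genes on the x axis. Dbp, Nr1d1, Nr1d2, Ciart and Per1 lie below 0 in model against control and Rhy against control, and above 0 in DXM against model.

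The share of mitochondrial counts differed widely inside groups, and no clock gene had an adjusted p under 0.05 for its correlation with it. Over 11 samples, with model 1 and model 2 merged, it had r = -0.76 with Clock (Spearman rho -0.73, permutation p 0.00814 and 0.0142, adjusted 0.0814 and 0.142 over 10 genes) and r = 0.56 with Nr1d1 (rho 0.45, permutation p 0.0724 and 0.164, adjusted 0.224 and 0.303). Without the 2 samples farthest from the median share, r was -0.64 and 0.52. Within groups r was -0.79 and 0.84, and in the 8 samples with Hoxb13 over 5 CPM it was -0.89 and 0.74. With this share as a covariate in edgeR, a setting added after seeing the data, Dbp and Nr1d1 were at -1.33 and -1.39 between Rhy and control, with adjusted p of 0.0475 and 0.0421, against 0.597% of all genes lower at that level (1.86% in either direction). The 5 clock genes lower in the model group kept an unadjusted p under 0.05, against 4.98% of all genes (12.3% in either direction). The counts of marker genes that follow are from the edgeR fit without this covariate. The summed level of 7 immediate early genes was 931 to 999 CPM in the control group and 570.0 to 592 CPM in the model group. Of the 7, 2 were lower at an unadjusted p under 0.05, against 4.51% of all genes (9.62% in either direction). Over 8 colon epithelial markers, 3 were lower at that level, and their sum was 22193 to 38273 CPM in the control group and 19175 to 26048 CPM in the model group. Of 7 myeloid markers 2 were lower, Csf1r and S100a8. S100a8 was near the floor, with means of 1.69 CPM in the control and 0.0993 CPM in the model group, and these groups overlapped. The sum of the 7 myeloid markers was 159 to 333 CPM in the control group and 197 to 203 CPM in the model group. Lyz2 alone had means of 129 and 139 CPM in these groups. In the DXM against the model group, 3 of the 7 immediate early genes were higher at that level, and their sum was 588 to 1433 CPM. Over all genes, 4.89% were higher at that level (7.69% in either direction). Of the 7 myeloid markers 2 were higher, Cd68 and S100a8, the latter at means of 2.08 CPM in the DXM and 0.0993 CPM in the model group. The sum of the 7 was 255 to 640 CPM in the DXM group and did not overlap that of the model group. Of 8 smooth muscle markers 4 were higher, and their sum was 5053 to 9135 CPM against 3636 to 4725 CPM. Of the epithelial markers 1 was higher and 1 lower, with a sum of 13550 to 28269 CPM. In the DXM against the control group, 5 smooth muscle markers were higher and 4 epithelial markers lower. Over all genes, 10.2% were lower at that level there and 18.9% passed in either direction. In the Rhy against the control group, 2 of 6 T cell markers were lower and 1 smooth muscle marker higher. Here 5.09% of all genes were lower and 11.6% passed in either direction. The part of these lists in the clock results was not tested. In the 9 libraries with Hoxb13 over 5 CPM alone, a choice made after seeing the data, 5 clock genes were lower in the model group at an unadjusted p under 0.05, against 7.82% of 17253 genes (15.6% in either direction). Of the groups compared, only control 1, control 2, model 1 and model 2 were left in this setting. Model 1 and model 2 were much more alike than any other pair, so its p-values rest on little separate replication.

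Several clock genes moved together from library to library. Over the 11 samples, 7 of 45 gene pairs had an adjusted p under 0.05 for Pearson's r on log2 CPM. Samples were shuffled without regard to group, so group differences enter these permutation p-values, and the r within groups were not tested. The share of pairs of any genes that would pass was not computed, so the count of 7 is a description. The 3 closest were Nr1d1 with Dbp (r = 0.93, rho 0.93, permutation p 2e-05 and 0.00016, adjusted 0.0009 and 0.0036), Nr1d1 with Ciart (r = 0.92, rho 0.94, permutation p 7e-05 and 8e-05, adjusted 0.00157 and 0.0036) and Dbp with Ciart (r = 0.89, rho 0.90, permutation p 0.00014 and 0.00031, adjusted 0.0021 and 0.00465). Without the 2 farthest samples r was 0.87, 0.84 and 0.81, and within groups 0.89, 0.84 and 0.82. Per2 with Clock had r = 0.87 (rho 0.88, permutation p 0.00052 and 0.00062, adjusted 0.00585 and 0.00697), 0.76 without the 2 farthest and 0.92 within groups. Per1 with Dbp (r = 0.79), Nr1d2 with Dbp (r = 0.75) and Per1 with Nr1d1 (r = 0.75) were the others, with rho of 0.77, 0.72 and 0.81. Their permutation p was 0.00329, 0.00537 and 0.00722 for r (adjusted 0.0296, 0.0403 and 0.0464) and 0.00718, 0.0159 and 0.00381 for rho (adjusted 0.0472, 0.0797 and 0.0343). Per1 with Dbp was 0.56 and Nr1d2 with Dbp 0.68 without the 2 farthest samples, and 0.61 and 0.50 within groups. Per1 with Nr1d1 was 0.40 without the 2 farthest samples, 0.41 within groups with every sample kept and 0.77 in the 8 samples with Hoxb13 over 5 CPM, so it fell both without those samples and without the group means, and which of these it rested on was not tested. Clock had negative r with Ciart (-0.66, rho -0.71), Nr1d1 (-0.58, rho -0.66) and Dbp (-0.45, rho -0.45) over the 11 samples, and none of these pairs passed, with permutation p of 0.0276, 0.0577 and 0.162 for r (adjusted 0.105, 0.164 and 0.347) and 0.0174, 0.0304 and 0.174 for rho (adjusted 0.0797, 0.0922 and 0.340). Without the 2 farthest samples these r were -0.79, -0.42 and -0.19, and within groups, untested, -0.91, -0.86 and -0.83. Arntl with Dbp had r = -0.23 (0.08 within groups). Among 16903 other genes over the 12 libraries, Nr1d1 ranked 1, Ciart 3, Per1 18 and Nr1d2 54 in likeness to Dbp, by Pearson's r on log2 CPM. The other members ranked far lower, Per3 at 1157, Npas2 at 6647, Arntl at 12684, Per2 at 13988 and Clock at 14900. The 5 most like Dbp were Nr1d1 (r = 0.93), Lman2l (0.90), Ciart (0.88), Tef (0.87), another clock-controlled factor of the Dbp family, and Frs3 (0.86). The 5 least like it were Dpp4 (-0.86), Tuba4a (-0.85), Xpnpep1 (-0.85), Pla2g4c (-0.84) and Ube2n (-0.84). The 5 most like Arntl were Ube2m (0.90), 4930524J08Rik (0.89), Ighmbp2 (0.88), Zfp248 (0.86) and Pitpnm2 (0.82), none of them in the clock lists. Its partner Npas2 ranked 428 (r = 0.55) and its partner Clock 6629 (r = 0.13). The 5 least like Arntl were Zfp277 (-0.92), Gm26526 (-0.83), Stard4 (-0.81), Apool (-0.81) and Commd8 (-0.81). These 12 libraries include the group differences, and ranks over so few samples are a description.

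**Figure D3:**
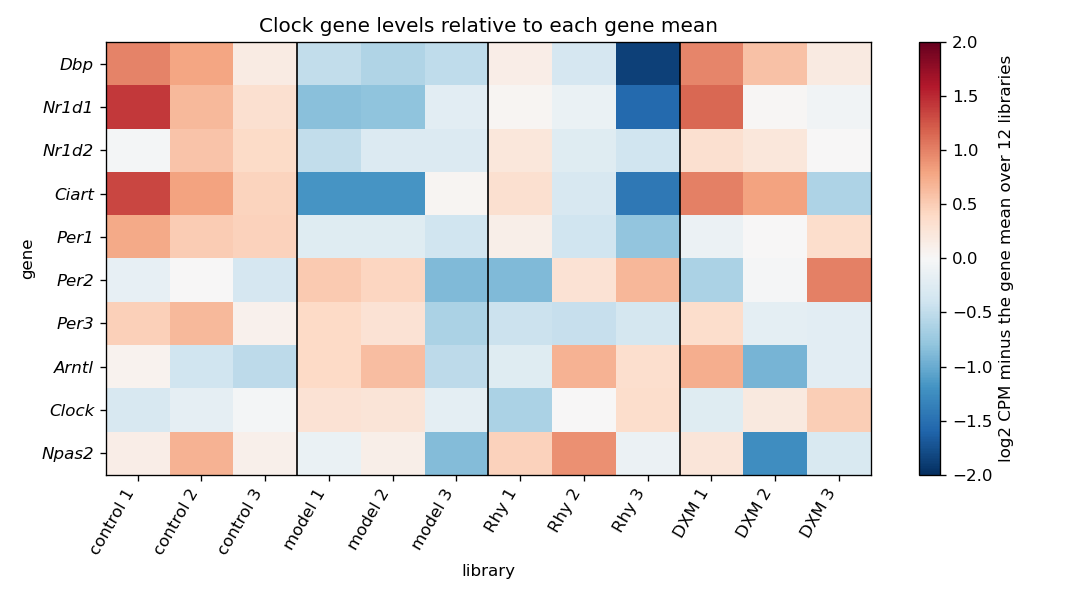
log2 CPM of each gene minus its mean over 12 libraries, genes in rows and libraries in columns, red above and blue below the mean. Dbp, Nr1d1 and Ciart are highest in control 1 and lowest in Rhy 3, while Per2 and Clock are highest in DXM 3 and lowest in Rhy 1.

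**Figure D4:**
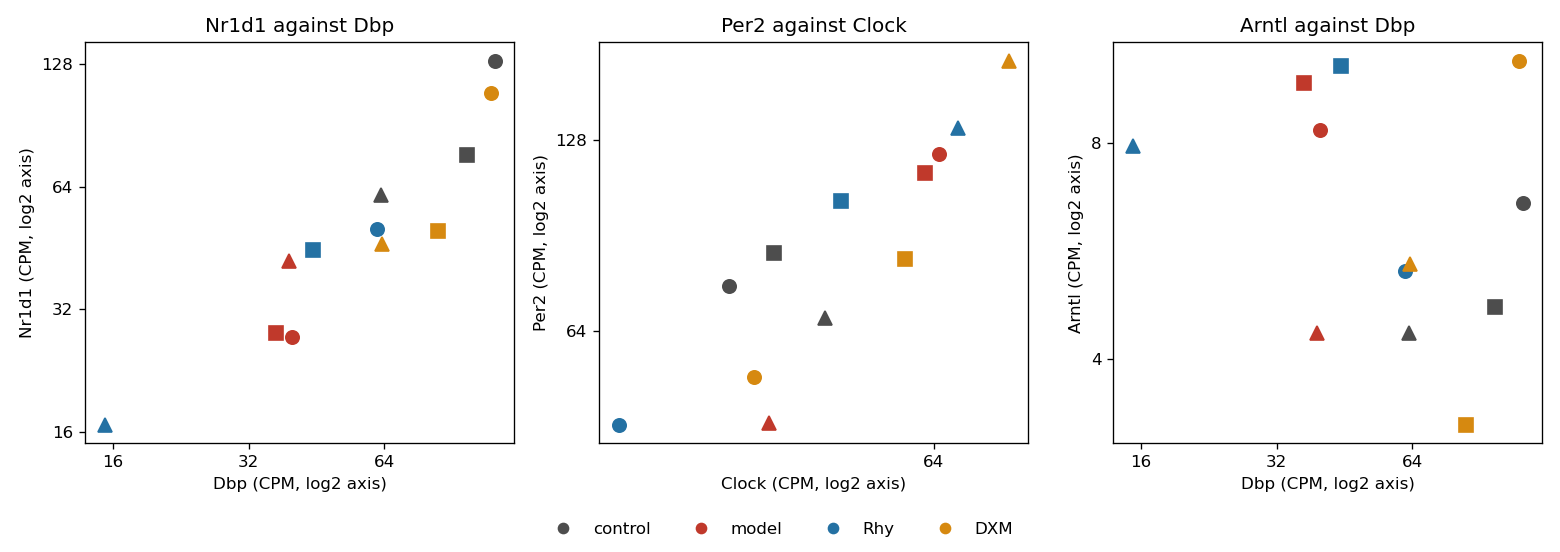
CPM of Nr1d1 against Dbp, Per2 against Clock and Arntl against Dbp in 12 libraries, on log2 axes, with a colour per group and a marker shape per replicate number. The first and second pairs rise together, with r of 0.93 and 0.87 over 11 samples, and the third has r of -0.23.

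Other genes of the loop were counted in the same fit. Of 9 clock partners tested of 10 counted here (Rorb was too low), 2 were lower in the model group at an unadjusted p under 0.05 in edgeR, Cry2 and Tef, and none was higher. Cry2, a repressor that acts with the Period proteins, was at -0.76 (SE 0.23, unadjusted p 0.00717) in the model and -0.93 (unadjusted p 0.00186) in the DXM group against control. A further list held kinases and ubiquitin ligase genes of the clock proteins together with Timeless and Tipin, which are neither and act as partners at the replication fork. Of its 7 genes tested of 8, 1 was lower, the kinase gene Gsk3b at -0.35 (SE 0.15, unadjusted p 0.0376), and 2 were higher, Timeless at 1.10 (SE 0.38, unadjusted p 0.0135) and Tipin at 1.05 (SE 0.30, unadjusted p 0.00486). No kinase or ligase gene tested from it was higher at that level. Of 6 clock outputs, 1 was lower, Usp2 at -0.51 (SE 0.19, unadjusted p 0.0181). No gene of these lists had an adjusted p under 0.05 in edgeR, and the shares lower and higher over all genes were 4.51% and 5.11%.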

How the data were processed

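Colonic RNA was sequenced in 12 libraries of 4 groups of 3. The deposited counts are whole reads per gene that the authors made without normalization, and the deposited FPKM values are scaled by the authors to gene length and library size. The submitters' processing notes list HISAT2 2.0.5, featureCounts 1.5.0-p3, DESeq2 1.16.1 and mm10, and the coordinates in the count table match GENCODE M21 in start and end for 98.3% of shared identifiers. The strand setting of the counting is not given in the sources used here.

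The 10 clock genes and the other gene lists were chosen with earlier results of these data known. Genes were filtered with edgeR's filterByExpr (minimum count 10), and all 12 libraries were fitted as group means with edgeR 4.0.16 in R 4.3.3, with TMM scaling and the quasi-likelihood test, two-sided, and Benjamini-Hochberg adjustment over 16904 genes. A standard error is the log2 fold change divided by the square root of F. Groups of 3 against 3 have 20 arrangements, so an exact permutation test of a single gene cannot go below p 0.1, and it gave 0.1 for each gene without overlap. CPM carries no prior count, and log2 CPM a prior count of 2. The correlations over 11 samples used log2(CPM + 0.1) instead, with the CPM of model 1 and model 2 averaged. Total counts were 14346478 to 17749716. Named beyond the 10 genes were the 3 other clock genes with the smallest p over the groups, Cry2, Gsk3b and Tipin, and the 5 genes most and least like Dbp and Arntl. Tef, Timeless and Usp2 were named after their values were seen. Of the clock partner, kinase and ligase lists, 2 genes are not reported here and were left out of the counts after the fit. The labels give each group replicates 1 to 3 and do not say what a number shares. Deviations from the group means of same-numbered libraries correlated at 0.104 to 0.363 in the 3 pairs of control and model, so the numbers were taken to pair these groups, and at -0.310 to 0.142 in the other comparisons, so there they were not. These ranges overlap, and between Rhy and DXM, which were not compared, the correlation reached 0.327 in replicate 3. The pairing is thus uncertain. Correlations were tested by permutation with 100000 resamples (scipy 1.17.1). Alternatives used DESeq2 1.42.0 and limma 3.58.1 on log2(FPKM + 1) and log2(FPKM + 0.1). The scripts were tested on simulated data. The DXM group is not named among the groups in the RNA-Seq methods of the study.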

Additional observations from a re-analysis of the deposited data

How the results depend on the processing

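Between model and control, 4 or 5 of the clock genes were lower at an unadjusted p under 0.05 in each of the 20 settings run, and Dbp, Nr1d1, Nr1d2 and Per1 were in each of them. Over all genes, 4.51% were lower at that level in the fit of 12 libraries without a covariate. This share was 7.82% in the libraries with Hoxb13 over 5 CPM and 4.98% with the mitochondrial covariate. It is not reported here for the other settings. All settings reuse the same control and model libraries, so their like counts are not separate results. Clock genes passed an adjusted p of 0.05 in 4 cases: Per1 in DESeq2 (model against control, and over any of the 4 groups with an adjusted p of 0.0217), and Dbp and Nr1d1 with the mitochondrial share as a covariate (Rhy against control). Where edgeR called 0 genes, DESeq2 called 46 and 33 genes in the model and Rhy groups against control, 1058 for DXM against control, 5 for Rhy and 53 for DXM against the model group, and 407 over any group. The mitochondrial covariate, added after seeing the data, called 1 (Rhy against model), 315 (Rhy against control), 652 (DXM against control) and 41 (any group). With any count as the filter the numbers were 1 (model against control and Rhy against control), 13 (DXM against control) and 12 (any group), and with only the groups compared 1 (model against control) and 2 (DXM against model). limma on log2(FPKM + 1) called 3, 1 and 1 (DXM against control, DXM against model, any group), and on log2(FPKM + 0.1) 3 (model against control), 3 and 5 (Rhy and DXM against model) and 8 (any group). The 9 libraries with Hoxb13 over 5 CPM, also a choice made after seeing the data, gave 2 (DXM against model) and 1 (any group). Leaving out 1 library gave 0 to 1 gene for model against control, for Rhy against model and over any group, and 0 to 4 genes (DXM against control). The cause of these differences was not tested.

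In the fit of 12 libraries, the shares over all genes at that level were 4.89% higher (DXM against model), 10.2% lower (DXM against control) and 5.09% lower (Rhy against control). For most of the settings that follow they are not reported here. Of the counts of clock genes, DXM against model (4) was 2 in each of the 3 limma settings, 1 with model 1 and model 2 as 1 library and 0 to 4 without 1 library. DXM against control (1) was 0 with upper-quartile scaling, any count, the mitochondrial covariate or model 1 and model 2 as 1 library, 2 in the libraries with Hoxb13 over 5 CPM and 0 to 1 without 1 library. Where this count stayed 1, the gene was not always Per1. In edgeR it was Per3 with the Hoxb13 covariate (unadjusted p 0.0457, Per1 0.0954). It was Npas2 without DXM 1 (unadjusted p 0.0315, Per1 0.143). Rhy against control (5) was 3 to 6 without 1 library, with the 3 without Rhy 3. Rhy against model (0 higher, 0 lower) was 0 to 1 higher without 1 library, the 1 without Rhy 3, and 0 to 1 lower, the 1 without model 3, and 1 lower in the libraries with Hoxb13 over 5 CPM and with the mitochondrial covariate.

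The log2 fold changes that changed sign in a setting were all above an adjusted p of 0.05. In Rhy against model, Dbp was -0.096 (limma, FPKM + 1, with or without the filter), -0.123 (limma, FPKM + 0.1), -0.007 (Hoxb13 covariate), -0.332 (Hoxb13 over 5 CPM), -0.26 (mitochondrial covariate) and -0.373 to 0.454 without 1 library. Nr1d1 was -0.14 (mitochondrial covariate) and -0.08 to 0.551 without 1 library, Per1 0.017 (RLE), 0.016 (DESeq2), 0.014 (model 1 and 2 as 1 library) and -0.279 to 0.18, Arntl -0.172 to 0.305, Ciart -0.13 to 0.912, Clock -0.41 to 0.056 and Per2 -0.335 to 0.338. In DXM against model, Clock was -0.034 (Hoxb13 covariate), -0.078 (Hoxb13 over 5 CPM) and -0.139 to 0.221, Per2 -0.025, -0.18 and -0.444 to 0.437 likewise, Npas2 0.054 (model 1 and 2 as 1 library) and -0.47 to 0.232, Per3 0.062 (the same) and -0.33 to 0.102, and Arntl -0.787 to 0.081. In DXM against control, Arntl was -0.023 and Per2 -0.012 (Hoxb13 covariate), -0.269 to 0.6 and -0.14 to 0.741 without 1 library, Dbp 0.006 (upper-quartile), 0.018 (mitochondrial covariate) and -0.31 to 0.099, and Nr1d2 -0.289 to 0.005. In Rhy against control, Clock was -0.101 to 0.365, Npas2 -0.141 to 0.374 and Per2 -0.03 to 0.642.

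The replicate numbers were taken to pair control with model and no other groups compared. This rests only on the correlations of deviations, as the labels do not say what a number shares. With the replicate block in the 6 control and model libraries, a setting added after seeing the data, 1 gene was called. This was the same number as in these 6 libraries without the block, against 0 in the fit of 12 libraries. The count of lower clock genes stayed 5, and no clock gene had an adjusted p under 0.05 with the block. In the other comparisons the number was not taken to pair the libraries. With the replicate block in all 12 libraries the count in DXM against control was 0, Clock in DXM against model was -0.003, Per2 there -0.006, Dbp in Rhy against model -0.12 and Per2 there -0.13.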
